A study of Mus musculus with 18 samples.

Results

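Replication protein A (RPA) and the SMC5/6 complex are multi-subunit assemblies that act on chromosomal DNA, and each is built from proteins of very different length. RPA is a heterotrimer of RPA1, RPA2 and RPA3 that coats single-stranded DNA during replication, repair and checkpoint signalling. SMC5/6 is a relative of cohesin and condensin in which the long ATPases SMC5 and SMC6 are joined by short non-SMC elements, and it takes part in homologous recombination and in the handling of stalled replication forks. ESCs divide rapidly and spend much of their cell cycle in S phase, when these factors act. The 9 genes described here are Rpa1, Rpa2, Rpa3, Smc5, Smc6, Nsmce1, Nsmce2, Nsmce3 and Nsmce4a, that is, 3 RPA and 6 SMC5/6 genes out of 51467 genes counted. The complexes were selected on a measured value, the change of the high polysome over monosome ratio in the knockout, in which Rpa3 and Nsmce3 had been seen among the genes that fell most. The other members were added by complex membership. That contrast, and the KO against WT differences in the monosome and the high polysome that make it up, are therefore given as descriptions without p-values. All 9 genes passed the filter on low counts, as did 12705 genes in all.

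The libraries came from V6.5 mouse ESCs kept in medium with serum, LIF and 2i (PD0325901 and CHIR99021). Cells were either wild type (WT) or knockout (KO) for Ddx6, the gene of an RNA helicase that acts in translational repression and mRNA decay. Before lysis, cells of either genotype were treated briefly with cycloheximide, which arrests ribosomes on mRNA, and lysates were spun through sucrose gradients. Each of 3 gradients per genotype gave a monosome, a low polysome (2 to 4 ribosomes) and a high polysome (4 or more ribosomes) library, 18 libraries in 6 groups of 3. The KO was made by CRISPR-Cas9 editing in 2 clones, of which clone 1 gave KO gradient 1 and clone 2 gave KO gradients 2 and 3. The labels do not say that the gradients were separate cultures, so p-values measure the spread between gradients, which may be technical.

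Levels are given as CPM, the counts of 3′ end reads scaled to library size with TMM factors. Total gene counts were 2543617 to 11474550 per library, lowest in the WT monosomes. Ddx6 was at 143 to 212 CPM in the WT libraries and lower in every KO library, at 55.3 to 82.7 CPM in clone 1 and 9.68 to 26.7 CPM in clone 2. All 10 ESC markers passed the filter, with a summed level of 3000 to 6650 CPM in WT and 3120 to 4940 CPM in KO libraries. Markers of other cells were low but not equal between genotypes. Summed over the whole lists, 8 fibroblast markers gave 6.74 to 14.9 CPM in WT and 10.8 to 17.4 CPM in KO, with Col3a1 at 0 in every library. Primitive endoderm markers, 6 in all, gave 4.18 to 11.1 and 7.44 to 26.6 CPM. Epiblast-like markers, 4 in all, gave 36.1 to 80.4 and 11.7 to 26.2 CPM, with Fgf5 at 0 in every library. Their part in the results was not tested, and in such bulk samples fewer cells of a type and less RNA per cell cannot be told apart.

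The annotated genes differ in architecture as well as in coding length (stop codon included, Gencode M21 on GRCm38). Rpa3, the smallest RPA subunit, has a coding length of 366 nt in 4 exons on chromosome 6 (8255936 to 8259173, minus strand). Rpa2, the middle subunit, has 813 nt in 9 exons on chromosome 4 (132768332 to 132778752, plus strand). Rpa1, the largest and main DNA-binding subunit, has 1872 nt in 17 exons on chromosome 11 (75298166 to 75348324, minus strand).

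In SMC5/6, the ATPases are by far the longest. Smc5 has 3264 nt in 24 exons on chromosome 19 (23206451 to 23273897, minus strand), and Smc6 has 3294 nt in 27 exons on chromosome 12 (11265886 to 11319785, plus strand). The kleisin gene Nsmce4a has 1146 nt in 11 exons on chromosome 7 (130532526 to 130573118, minus strand). The SUMO ligase gene Nsmce2 has 744 nt in 7 exons on chromosome 15 (59374247 to 59601684, plus strand). Nsmce1, a RING-domain subunit, and Nsmce3, a MAGE-family subunit, are a pair of nearly equal coding length, 843 and 840 nt. Nsmce1 (chromosome 7, 125467640 to 125491596, minus strand) has 8 exons and a 3′ UTR of 124 nt. Nsmce3 (chromosome 7, 64867052 to 64872997, minus strand) is a gene of 1 exon with a 3′ UTR of 5027 nt.

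Some of these genes lie within the span of a neighbour on the same strand, so reads from unspliced neighbours could add to their counts. Nsmce3 lies in the span of Fam189a1, which was at 0.207 to 3.42 CPM. Nsmce4a overlaps the span of Fgfr2, which was at 2.39 to 14.1 CPM. In neither pair do annotated exons share a base, and both neighbours were below the member in every library.

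The first question was where the mRNAs of one complex sit on WT gradients. Since the WT monosome and high polysome libraries are part of the contrast that led to the list, these ratios are given without p-values. On the log2 scale of the fit, high polysome over monosome was above 0 for 8 of 9 genes, and the median over the 9 genes was 0.94, against -0.018 over all genes tested. With the limma threshold of an adjusted p under 0.05, 7 of 9 genes were called higher, where 28.9% of all genes were, and 1 of 9 lower, where 32.2% were. These shares are a description only, since a high WT ratio adds to a fall in the contrast that led to the list.

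For the RPA genes, the WT ratios of high polysome to monosome were alike while the low polysome set Rpa3 apart. Rpa1 was at 53.8, 68.8 and 56.6 CPM in the monosome, 57.0, 58.2 and 61.4 CPM in the low polysome and 139, 117 and 128 CPM in the high polysome of WT gradients 1, 2 and 3. Rpa2 was at 203, 203 and 183 CPM in the monosome, 162, 153 and 198 CPM in the low polysome and 429, 335 and 359 CPM in the high polysome. Both thus had their highest level in the high polysome, and the log2 high polysome over monosome ratio was 1.09 (SE 0.134) for Rpa1 and 0.93 (SE 0.158) for Rpa2. Rpa3 was at 39.4, 36.2 and 24.4 CPM in the monosome, 105, 70.6 and 44.5 CPM in the low polysome and 53.3, 75 and 57.4 CPM in the high polysome. Its log2 ratio was 0.94 (SE 0.583) for the high polysome and 1.11 (SE 0.584) for the low polysome. These large errors take in the spread of the KO gradients, and with WT groups alone the high polysome value was 0.98 with an SE of 0.179. Rpa1 and Rpa2 had low polysome over monosome ratios of -0.025 (SE 0.139) and -0.20 (SE 0.16).

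The WT ratio of Rpa3 was above the upper quartile of genes of like coding length. A high WT ratio adds to the fall for which Rpa3 was chosen, so nothing is read from this. The median log2 high polysome over monosome ratio of 1055 genes with up to 500 nt was -0.77, with an upper quartile of 0.062, below the 0.94 of Rpa3. In the single gradients the ratio of Rpa3 was 0.43, 1.04 and 1.21.

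Within SMC5/6, the ATPase genes of nearly equal coding length were distributed differently. Smc5 was at 29.9, 49.3 and 42.3 CPM in the WT monosome, 68.0, 88.6 and 92 CPM in the low polysome and 22.5, 31.8 and 34.5 CPM in the high polysome. Its low polysome level was above its other fractions in every WT gradient, by a log2 ratio to the monosome of 1.01 (SE 0.19). Smc6 was at 29.1, 40.0 and 34.4 CPM in the monosome, 43.4, 51.5 and 67.2 CPM in the low polysome and 45.0, 59.4 and 54.5 CPM in the high polysome. Its log2 ratio to the monosome was 0.61 (SE 0.212) in the low polysome and 0.60 (SE 0.21) in the high polysome, where that of Smc5 was -0.47 (SE 0.199), the 1 lower call, which was lost in 9 of 13 alternatives, leaving out any gradient but KO 2 among them, at -0.38 to -0.56. The high polysome call of Smc6 was lost without WT gradient 2 or 3, at 0.63 and 0.57. In reads, Smc5 per Smc6 was 0.499, 0.535 and 0.632 in the WT high polysome libraries, below the 1.03 to 1.23 of the monosome and the 1.37 to 1.72 of the low polysome, with no overlap between fractions. Such a ratio within a library does not depend on scaling.

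The short SMC5/6 subunits were highest in the WT high polysome. Nsmce1 was at 38.2, 51.6 and 51.6 CPM in the monosome, 79.5, 75.1 and 100.2 CPM in the low polysome and 169, 147 and 150.1 CPM in the high polysome. Nsmce3 was at 62.5, 55.5 and 49.9 CPM in the monosome, 129, 103 and 60.1 CPM in the low polysome and 165, 182 and 131 CPM in the high polysome. These had the highest log2 high polysome over monosome ratios of the 9 genes, 1.70 (SE 0.15) for Nsmce1 and 1.52 (SE 0.311) for Nsmce3. Over 2801 genes with a coding length over 500 and up to 1000 nt, the median was 0.26 and the upper quartile 0.90. Like Rpa3, Nsmce3 was chosen for its fall, so nothing is read from its place. Nsmce4a was at 72.1, 89.9 and 77.3 CPM in the monosome, 132, 127 and 120.2 CPM in the low polysome and 176, 181 and 165 CPM in the high polysome, a steady increase over the fractions in every gradient. Nsmce2 was at 28.7, 34.6 and 30 CPM in the monosome, 22.7, 23 and 24.5 CPM in the low polysome and 52.0, 72.8 and 57.5 CPM in the high polysome. Nsmce2 thus had its lowest level in the low polysome of every WT gradient, as no other SMC5/6 gene did.

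For low polysome over monosome in WT, 4 of 9 genes were called higher (Smc5, Smc6, Nsmce1 and Nsmce4a), where 20.4% of all genes were, and none lower, where 22.8% were. These shares too are a description only, since the WT monosome is part of the contrast that led to the list. The call of Smc6 was lost without WT gradient 3, with a log2 ratio of 0.43. With the gradient as a block, Nsmce3 was called higher (0.74, main value 0.75) and Nsmce2 lower (-0.41, main value -0.42) as well.

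**Figure D1:**
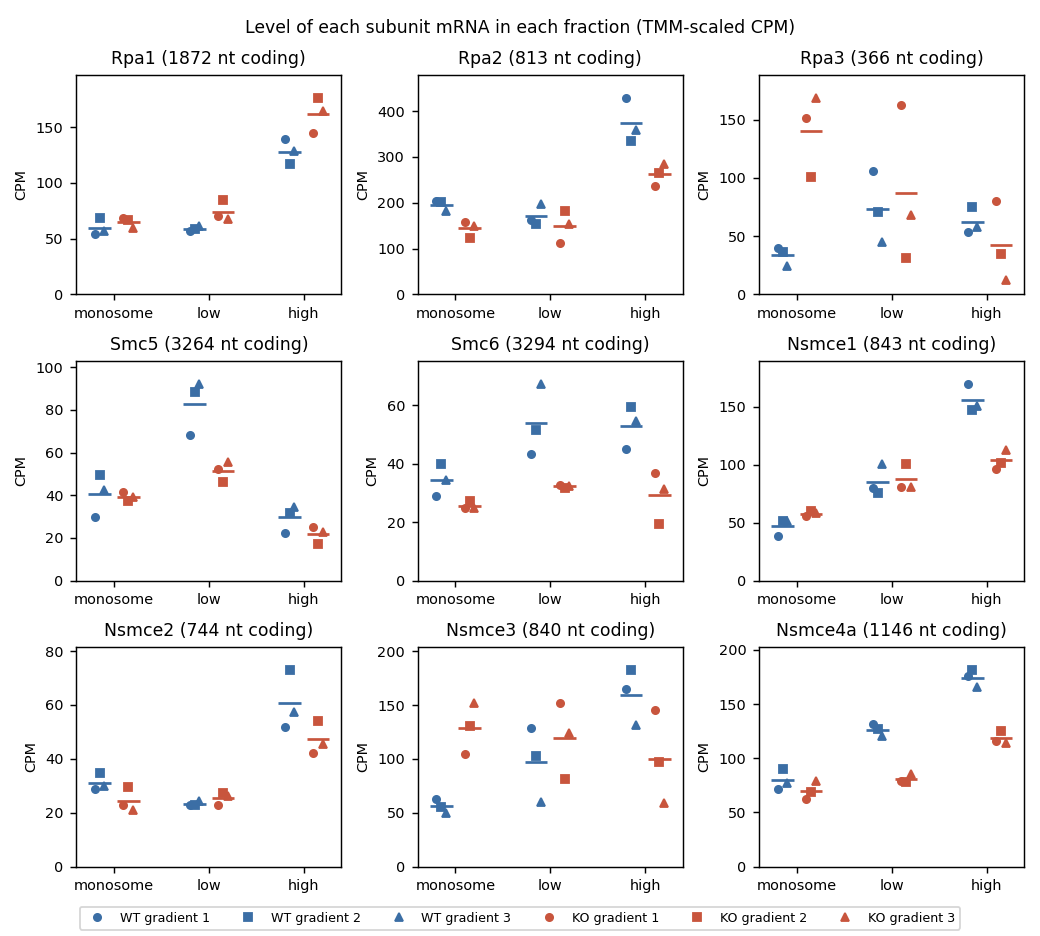
TMM-scaled CPM (y axes, linear from 0) of the 9 genes by fraction (x axes), with WT in blue and Ddx6 KO in red. Points are libraries, marker shape gives the gradient number, and horizontal lines are group means (n = 3). In the monosome, Rpa3 is at 24.4 to 39.4 CPM in WT and 101 to 168 CPM in KO. In the low polysome, the KO points of Smc5, Smc6 and Nsmce4a lie below all WT points.

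The comparison of KO with WT in the low polysome uses 6 libraries outside the contrast that led to the list, so it was tested. Its standard errors come from a joint fit of all 18 libraries, and the members were chosen with earlier results of these data known. Smc5, Smc6 and Nsmce4a were lower in KO, Rpa1 was higher, and the other 5 genes did not pass the threshold. By limma, 3 of 9 genes were lower, where 24.3% of all genes were, and 1 of 9 was higher, where 23.4% were. In all, 44.4% of the members and 47.7% of all genes were called, so the number of calls does not set these genes apart.

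The long subunits and the kleisin made up the lower group. Smc5 was at 52.1, 46.1 and 55.5 CPM in the KO low polysome, below the 68.0 to 92 CPM of WT, a log2 change of -0.68 (SE 0.168, limma adjusted p = 0.00243). Smc6 was at 32.6, 31.6 and 32.4 CPM, below the 43.4 to 67.2 CPM of WT, a log2 change of -0.72 (SE 0.191, limma adjusted p = 0.00399). Nsmce4a was at 78.9, 78.2 and 85.4 CPM, below the 120.2 to 132 CPM of WT, a log2 change of -0.64 (SE 0.113, limma adjusted p = 0.000103). For none of these genes did the groups overlap, and each call was kept in all 14 alternatives. The share of all genes without overlap was not counted. Nothing is therefore read from a lack of overlap, here or for the other genes and ratios. Over 1572 genes with more than 3000 nt of coding sequence the median log2 change was -0.18 with a lower quartile of -0.56, so both ATPase genes were below that quartile. Nsmce4a was below the lower quartile of -0.28 of 2731 genes over 1000 and up to 1500 nt.

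Rpa1 was at 70.0, 84.6 and 67.9 CPM in the KO low polysome, above the 57.0 to 61.4 CPM of WT. Its log2 change was 0.32 (SE 0.128, limma adjusted p = 0.042), and this call was lost in 8 of 14 alternatives, with adjusted p-values of 0.0374 to 0.204 over the alternatives. Leaving out any single gradient other than KO 1 was among them, with log2 changes of 0.23 to 0.35.

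The genes that led to the list did not pass in the low polysome. Rpa3 was at 163, 31.2 and 67.8 CPM in KO gradients 1, 2 and 3, so clone 1 was above the 44.5 to 105 CPM of WT, and the gradients of clone 2 were below and within it. Its log2 change was 0.019 (SE 0.493, limma adjusted p = 0.976). Nsmce3 was at 152, 81.4 and 124 CPM, across the 60.1 to 129 CPM of WT, with a log2 change of 0.32 (SE 0.283, limma adjusted p = 0.367). At these errors a change of this size could not be told from none.

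The remaining short subunits were close to WT in the low polysome. Nsmce1 was at 80.7, 100.5 and 80.8 CPM, with a log2 change of 0.041 (limma adjusted p = 0.822). Nsmce2 was at 22.8, 27.4 and 26.1 CPM, with a log2 change of 0.12 (limma adjusted p = 0.578). Rpa2 was at 112, 182 and 153 CPM, with a log2 change of -0.22 (limma adjusted p = 0.265). The groups overlapped for each.

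**Figure D2:**
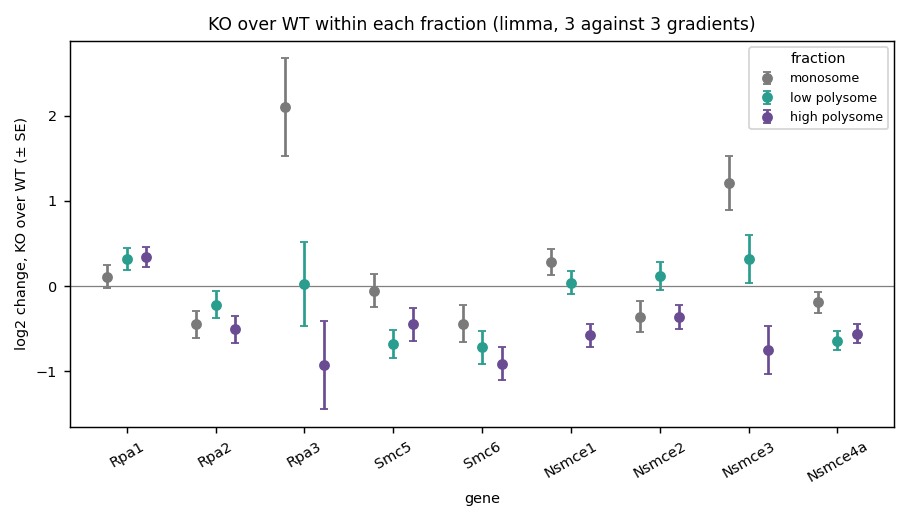
Log2 change of KO over WT (y axis) for each gene (x axis) within the monosome (grey), low polysome (green) and high polysome (purple), with bars of 1 SE from the limma fit on 3 against 3 gradients. Rpa3 and Nsmce3 run from 2.10 and 1.21 in the monosome to -0.93 and -0.75 in the high polysome. Rpa1 is above 0 and Rpa2, Smc5, Smc6 and Nsmce4a are below 0 in every fraction.

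In the other fractions, described without tests, the genes fell into several patterns. In the monosome, 2 of 9 were called higher in KO, where 18.6% of all genes were, and 1 of 9 lower, where 20.1% were. In the high polysome, 6 of 9 were called lower, where 21.1% of all genes were, and 1 of 9 higher, where 25.3% were. Nothing is read from these shares, since the list came from these libraries. The lower calls in the high polysome were Rpa2, Smc6, Nsmce1, Nsmce2, Nsmce3 and Nsmce4a. That of Nsmce2 was lost without WT gradient 2 or 3 or KO gradient 1 or 3, at -0.22 to -0.39, and that of Nsmce3 without WT gradient 1 or 2 or KO gradient 2 or 3, at -0.44 to -0.78. The lower call of Rpa2 in the monosome was lost without WT gradient 1 or 2 or KO gradient 2 or 3, at -0.34 to -0.49. The higher call in the high polysome, that of Rpa1, was lost in 8 of 14 alternatives. Leaving out any single gradient other than KO 1 was among them, at 0.27 to 0.34.

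Rpa3 and Nsmce3 were the genes that were higher in the KO monosome. Rpa3 was at 152, 101 and 168 CPM there, above every WT library, a log2 change of 2.10 (SE 0.574). Nsmce3 was at 104, 130.3 and 152 CPM there, above the 49.9 to 62.5 CPM of WT, a log2 change of 1.21 (SE 0.313). In the high polysome, the gradients of KO differed from each other. Rpa3 was at 79.7, 34.4 and 12.4 CPM, against 53.3 to 75 CPM in WT, so clone 1 was above and clone 2 below all WT libraries. Its log2 change there was -0.93 (SE 0.515), and -1.58 without KO gradient 1. Nsmce3 was at 145, 97.0 and 59.0 CPM, against 131 to 182 CPM in WT, a log2 change of -0.75. Of these 3 values, that of clone 1 lay within the WT range.

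Nsmce1, with almost the coding length of Nsmce3, was at 55.5, 59.7 and 58.1 CPM in the KO monosome and 96.4, 101 and 113 CPM in the KO high polysome. The log2 changes against WT were 0.28 and -0.58, and in either fraction the groups did not overlap. Smc5 was at 41.3, 37.5 and 39.1 CPM in the KO monosome and 24.9, 17.3 and 22.9 CPM in the KO high polysome. Smc6 was at 24.8, 27.3 and 24.9 CPM in the KO monosome and 36.7, 19.4 and 31.3 CPM in the KO high polysome. The ATPase genes differed in the monosome, where the log2 change was -0.054 (SE 0.197) for Smc5 and -0.44 for Smc6, and every KO library of Smc6 was below WT.

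Nsmce4a was at 62.8, 69.1 and 78.7 CPM in the KO monosome and 116, 125 and 114 CPM in the KO high polysome, and its log2 change in the high polysome was -0.56. Nsmce2 was at 22.8, 29.5 and 21.2 CPM in the KO monosome and 42.3, 54.2 and 45.5 CPM in the KO high polysome, with a log2 change of -0.36 in each. Rpa2 was at 158, 123 and 150.1 CPM in the KO monosome and 237, 266 and 285 CPM in the KO high polysome, without overlap with WT in either fraction. Its log2 changes were -0.45 and -0.51, which made Rpa2 one of the genes lower by a like amount at the ends of the gradient. Rpa1 was at 68.3, 66.6 and 59.8 CPM in the KO monosome and 145, 176 and 165 CPM in the KO high polysome, with log2 changes of 0.11 and 0.34.

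A mean over the 3 fractions of a gradient weighs monosome and high polysome alike, and so is a different quantity from their ratio. It still contains the monosome and high polysome libraries that led to the list, so its p-values are not independent of that choice. Over 3 KO against 3 WT gradients, Rpa1 was higher, Rpa2, Smc5, Smc6 and Nsmce4a were lower, and the others did not pass. By limma, 1 of 9 genes was higher, where 28.4% of all genes were, and 4 of 9 lower, where 28.2% were. The log2 changes that kept their call in all 11 alternatives were -0.68 for Smc6 (SE 0.123, limma adjusted p = 0.000483), -0.46 for Nsmce4a (SE 0.0857, limma adjusted p = 0.000578) and -0.39 for Rpa2 (SE 0.0877, limma adjusted p = 0.00208). The change of 0.26 of Rpa1 (limma adjusted p = 0.0212) was lost in 3 of 11 alternatives, and that of -0.38 of Smc5 (limma adjusted p = 0.0365) in 6 of 11. Leaving out KO gradient 2 or 3 lost Rpa1, and leaving out any gradient of WT 2, WT 3, KO 2 or KO 3 lost Smc5, with values of -0.29 to -0.43. The value was 0.39 for Rpa3 (limma adjusted p = 0.263) and 0.25 for Nsmce3 (limma adjusted p = 0.154), neither past the threshold. With counts summed over the fractions and tested in edgeR, Nsmce1 (-0.38, main value -0.078) and Nsmce2 (-0.33, main value -0.20) were called lower as well, which made 6 lower calls, and Rpa1 was not called. This is a mean of the fractions collected and not a level of total RNA.

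The change of the high polysome over monosome ratio between genotypes is the contrast from which Rpa3 and Nsmce3 were known. Here 3 of 9 genes were called lower, where 7.09% of all genes were, and none higher, where 10.7% were. The median over the members was -0.40 and over all genes 0.022. In single KO gradients the log2 ratio was -0.92, -1.54 and -3.71 for Rpa3 and 0.47, -0.42 and -1.36 for Nsmce3, against 1.39, 1.71 and 1.38 for Nsmce3 in WT. All KO values were thus below all WT values, and for each gene the KO gradient of clone 1 was nearest to WT. The change of Rpa3 was -3.03 (SE 0.771), -3.61 without KO gradient 1 and -2.19 without KO gradient 3. Its call was lost without KO gradient 3 and also without WT gradient 2, at -2.98. For Nsmce3 it was -1.96 (SE 0.419) and -2.41 without KO gradient 1.

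Nsmce1 was the other called gene, with log2 ratios of 2.13, 1.5 and 1.53 in WT and 0.79, 0.76 and 0.95 in KO, and a change of -0.86 (SE 0.203). Its KO gradients lay close together, unlike those of Rpa3 and Nsmce3. Once the trend with coding length was removed, its change was -0.59 and no longer called. The other short genes moved less, by -0.055 (SE 0.223) for Rpa2 and 0.0093 (SE 0.229) for Nsmce2, against a median of -0.34 over 2801 genes over 500 and up to 1000 nt. Both were above that median, and their KO gradients overlapped those of WT.

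The long SMC5/6 genes were below the median of their length class. The change was -0.40 (SE 0.275) for Smc5 and -0.47 (SE 0.293) for Smc6, where the median over genes of more than 3000 nt was 0.57 with a lower quartile of 0.17. For Rpa1 it was 0.22 (SE 0.183), against a median of 0.23 over genes over 1500 and up to 2000 nt. For Nsmce4a it was -0.36 (SE 0.164), against -0.029 over genes over 1000 and up to 1500 nt. With the trend with coding length removed, the change was -0.94 for Smc6, which was then called, and -0.87 for Smc5, which was not. Within RPA the changes were 0.22 for Rpa1, -0.055 for Rpa2 and -3.03 for Rpa3. Genes of up to 500 nt had a median of -0.54 and a lower quartile of -0.86. Since Rpa3 was known for its fall in this contrast, nothing is read from its place in the order of coding length. Within SMC5/6 the changes did not run in that order, since Nsmce2, the shortest, was above Smc5 and Smc6.

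**Figure D3:**
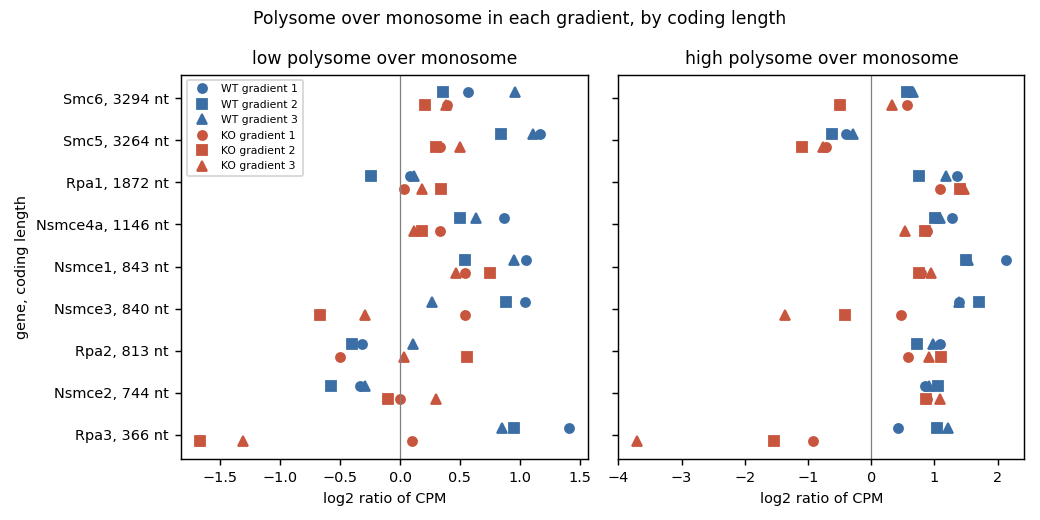
Log2 ratio of CPM (x axes) of the low polysome (left) and the high polysome (right) to the monosome in each WT (blue) and KO (red) gradient, with genes on the y axis ordered by coding length and marker shape giving the gradient number. For Rpa3 and Nsmce3 the KO points on the right reach -3.71 and -1.36, while those of Rpa2 (0.58 to 1.11, WT 0.73 to 1.08) and Nsmce2 (0.87 to 1.09, WT 0.85 to 1.06) overlap the WT points.

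For the ratio of low polysome to monosome, the KO effect was passed by no member with limma, edgeR or DESeq2, where 4.71% of all genes passed with limma. This contrast shares the monosome libraries with the one above. The KO log2 ratios of Rpa3 were 0.10, -1.67 and -1.31, below the 0.85 to 1.41 of WT, and the effect was -2.08 (SE 0.757). Without KO gradient 1 it was -2.58 and was called. Smc5 had KO ratios of 0.33, 0.30 and 0.50, below the 0.84 to 1.17 of WT, with an effect of -0.62 (SE 0.259), and with the gradient as a block it was called at -0.66. Nsmce2 moved the other way, with KO ratios of -0.10 to 0.30, above the -0.58 to -0.29 of WT, and an effect of 0.49 (SE 0.245). Nsmce4a had an effect of -0.45 (SE 0.166) and Nsmce3 one of -0.88 (SE 0.422).

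The ratio of high to low polysome, which shares the high polysome libraries, was also called for none of the 9 genes with limma or edgeR, where 4.42% of all genes were called with limma. Nsmce1 had an effect of -0.63 (SE 0.188), and it was called under DESeq2 scaling, under library size scaling and by the DESeq2 test. For Nsmce3 the effect was -1.07 (SE 0.397). For Smc5 it was 0.23 (SE 0.255), and its log2 change of KO over WT was -0.68 in the low and -0.45 in the high polysome.

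Reads of one subunit per read of another in the same library show the balance of the mRNAs without any scaling. Levels of different genes are compared here as reads, since 3′ end reads do not grow with transcript length. In the WT monosome there were 0.733, 0.527 and 0.432 Rpa3 reads per Rpa1 read, and in the KO monosome 2.22, 1.51 and 2.82. In the high polysome the ratio was 0.383, 0.642 and 0.446 in WT and 0.549, 0.195 and 0.0751 in KO. The order of Rpa3 and Rpa1 was inverted in the monosome of every KO gradient, and the high polysome of clone 2 was below every WT library. Both fractions belong to the contrast for which Rpa3 was chosen, so these ratios are a description and nothing is read from them.

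In the low polysome the Rpa3 per Rpa1 ratio was 1.85, 1.21 and 0.725 in WT and 2.32, 0.369 and 0.999 in KO, with overlap. Rpa2 per Rpa1 behaved differently. It was 2.64 to 3.77 over the 9 WT libraries and 1.51 to 2.51 over the 9 KO libraries, so every KO library was below every WT library in all 3 fractions.

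Nsmce3 and Nsmce1 make a pair in which coding length is held nearly equal. Nsmce3 per Nsmce1 was 1.64, 1.08 and 0.968 in the WT monosome and 1.88, 2.18 and 2.62 in the KO monosome, without overlap. In the high polysome it was 0.976, 1.24 and 0.874 in WT and 1.5, 0.958 and 0.523 in KO, with overlap. The log2 high polysome over monosome ratio of Nsmce3 less that of Nsmce1 was -0.74, 0.21 and -0.15 in WT and -0.32, -1.18 and -2.31 in KO. The value of clone 1 was within the WT range and those of clone 2 were below it. Nsmce3 was chosen for its fall in this contrast, so nothing is read from its distance to Nsmce1.

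The ATPase pair was alike in WT and KO by its difference in high polysome over monosome. Its difference in low polysome over monosome was smaller in KO. Smc5 per Smc6 was 1.67, 1.37 and 1.57 in the KO monosome, above the WT values, 1.60, 1.46 and 1.71 in the low polysome, among the WT values, and 0.679, 0.893 and 0.732 in the high polysome, above the WT values. The log2 high polysome over monosome ratio of Smc5 less that of Smc6 had a mean of -1.05 (SD 0.123, n = 3) in WT and -0.99 (SD 0.345, n = 3) in KO. For low polysome over monosome, this difference was 0.60, 0.48 and 0.16 in WT and -0.058, 0.087 and 0.12 in KO.

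**Figure D4:**
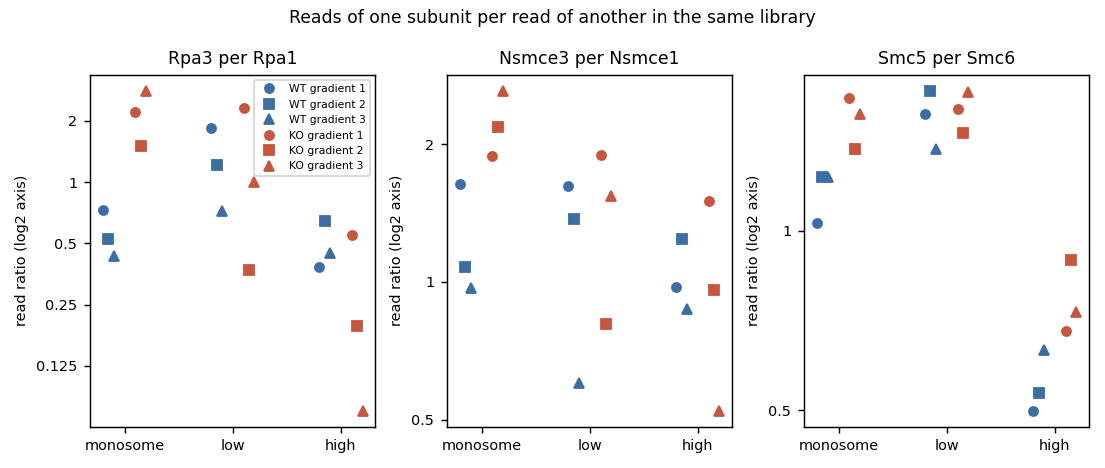
Reads of Rpa3 per Rpa1, Nsmce3 per Nsmce1 and Smc5 per Smc6 (y axes, log scale) in each WT (blue) and KO (red) library of the 3 fractions (x axes), with marker shape giving the gradient number. Rpa3 per Rpa1 is 1.51 to 2.82 in the KO monosome against 0.432 to 0.733 in WT, and Smc5 per Smc6 is lowest in the high polysome in either genotype.

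Across the 18 libraries, the members of one complex did not all have like log2 CPM profiles. These Pearson correlations describe points that share 6 gradients and 3 fractions. Rpa1 and Rpa2 had an r of 0.757, while Rpa3 had an r of -0.356 with Rpa1 and -0.471 with Rpa2. Rpa3 was chosen for its fall in a contrast of libraries among these 18, so nothing is read from its unlikeness to Rpa1 and Rpa2. The most alike pair was Rpa2 and Nsmce2, with an r of 0.876, followed by Rpa1 and Nsmce2, with 0.841, and Nsmce1 and Nsmce4a, with 0.825. Rpa3 and Nsmce3 had an r of 0.732, but both were known for a fall in the same contrast, and its monosome and high polysome libraries are among the 18, so nothing is read from their likeness. Smc5 was most unlike Rpa1, with an r of -0.766, and had an r of 0.463 with Smc6.

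Among all genes tested, the profiles nearest to Rpa3 over the 18 libraries were those of Tmem38b (r = 0.952), Slc35a1 (r = 0.919) and Galnt11 (r = 0.902). Since these libraries include the monosome and high polysome in which Rpa3 and Nsmce3 changed, a fall in the same contrast follows from the way these genes were found. Their changes in high polysome over monosome were -2.15, -1.35 and -1.55, and their coding lengths were 879, 1011 and 1827 nt, all longer than Rpa3. The profiles nearest to Nsmce3 were those of Rheb (r = 0.938), Myl12a (r = 0.93) and Hacd2 (r = 0.929). Their changes were -1.53, -1.49 and -1.57, with coding lengths of 555, 519 and 765 nt. In the low polysome, KO against WT, the log2 changes of these 6 genes were 0.042 to 0.20.

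Other genes of the same pathways were compared in the low polysome from 7 lists with 57 genes, of which 56 passed the filter. In KO, 25 of the 56 were lower and 2 higher by limma, with a median log2 change of -0.36, against -0.027 over all genes. Each count of these lists stands against 24.3% lower and 23.4% higher over all genes tested, and no list was tested as a set. Among the SMC relatives, 5 of 10 cohesin genes were lower and none higher, among them Pds5a, a cohesin regulator (-0.74, limma adjusted p = 0.00262), and the ATPase gene Smc1a (-0.69, limma adjusted p = 0.0128). Of 8 condensin genes, 5 were lower and 1 higher, with Ncapg (-1.03, limma adjusted p = 0.000138), Ncapd3 (-0.88, limma adjusted p = 0.000138), Smc4 (-0.80, limma adjusted p = 0.000555) and Smc2 (-0.79, limma adjusted p = 0.000131) lower. Smc2 and Smc4 encode the condensin ATPases. The higher gene, named after its value was seen, was Ncapd2 (0.46, limma adjusted p = 0.0211). The low polysome change of Smc5 and Smc6 was thus of the size seen in Smc1a.

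Slf1, a factor that brings SMC5/6 to damaged DNA, had the lowest value of the lists (-1.08, limma adjusted p = 0.00129), and of 2 SMC5/6 partners 1 passed. Of 11 genes of the checkpoint that RPA-coated DNA triggers through ATR, 6 were lower and none higher, led by the ATR activator Topbp1 (-0.94, limma adjusted p = 1.59e-05) and the fork protection factor Tipin (-0.81, limma adjusted p = 0.000371).

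Of 9 RPA partners and other single-strand binders, 3 were lower and 1 higher. Ten1, of the telomeric CST complex (-0.59, limma adjusted p = 0.00121), and Rpain, an RPA import factor (-0.56, limma adjusted p = 0.00184), were lower, and Nabp1, a single-strand binding protein (1.37, limma adjusted p = 0.0024), was higher. Ten1 and Rpain were also the only genes of the lists whose low polysome over monosome ratio was changed by limma, at -0.94 (adjusted p = 0.0192) and -0.75 (adjusted p = 0.0332). Ten1 has a coding length of 486 nt, and the median of this effect over genes of up to 500 nt was -0.56. Rpain has 660 nt, and the median over genes over 500 and up to 1000 nt was -0.14, with a lower quartile of -0.45. None of the 4 polymerase alpha-primase genes passed in the low polysome, where their log2 changes were -0.52 to 0.093.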

How the data were processed

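Counts of QuantSeq 3′ end reads per gene were deposited by the authors as 1 table for 18 libraries. Per the labels and file headers, reads were trimmed with cutadapt 1.14, aligned to mm10 with STAR 2.5.3a, kept where unique and counted by strand with featureCounts 1.5.3 on Gencode M14 genes. No molecular identifiers are mentioned, so PCR copies are taken to be included. Here, 92 spike-in sequences were left out, and genes with at least 3 CPM in at least 3 libraries were kept (12705 of 51467). Symbols and coding lengths came from Gencode M21 (51274 identifiers matched).

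Under R 4.3.3, edgeR 4.0.16 gave TMM factors, and voom of limma 3.58.1 was run on all 6 groups jointly. The limma filter and interaction term follow the study's methods. The mean over fractions was fitted with limma on log2 CPM per gradient. Tests were two-sided, and a gene was called where its p, adjusted over the whole table by the Benjamini-Hochberg method, was under 0.05. Ratios of single gradients used a pseudocount of 0.5 CPM. Alternatives were DESeq2 1.42.0 scaling and test, library size scaling, edgeR's quasi-likelihood test, no filter, compared groups only, a coding length trend removed, the replicate block and each gradient left out. The fits were tested on simulated data. There, a log2 change of 1 was called in 37% of changed genes for the KO effect on high polysome over monosome. It was called in 26% for the effect on low polysome over monosome and in 72% for KO against WT in the low polysome. For a log2 change of 2 these shares were 89%, 80% and 97%. A gene not called may thus still have changed.

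Fractions with the same genotype and number came from the same gradient, per the labels. Their deviations from group means correlated at -0.162 to 0.418, and 12 of 18 libraries were closest to their own gradient. Fractions of the same genotype from different gradients correlated at -0.404 to 0.472, a wider range, so the pairing rests on the labels. Named were the 9 members, Ddx6, the 3 profiles nearest to Rpa3 and to Nsmce3, and from each related list called genes in order of the size of their low polysome change, at most 4 per list, besides Ncapd2. The members and lists were chosen with earlier results of these data known. The separate result of 1 related list is not reported here, and its genes are in the totals over the lists.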

Additional observations from a re-analysis of the deposited data

Results flagged for a closer look

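The KO against WT change differed between the high polysome and the monosome, by the interaction term of limma, for 3 of the 9 genes. The difference was -3.03 for Rpa3, -0.86 for Nsmce1 and -1.96 for Nsmce3 on the log2 scale. This is the contrast from which Rpa3 and Nsmce3 were known, so these values are a description.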

How the results depend on the processing

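Over the alternatives, 998 member values kept their direction and side of the threshold, 59 lost a call, 32 gained one and none turned sign while called. The members called lower in the KO effect on low polysome over monosome were 1 with the gradient as a replicate block (0 in the main fit), and those on high over low polysome were 1 under DESeq2 size factors, library size alone and the DESeq2 test (main 0). In the monosome, KO against WT, members called lower were 0 with no filter and 2 with compared groups only or the length trend removed (main 1, Rpa2). In the low polysome, members called higher were 0 with no filter, compared groups only or the length trend removed (main 1), and in the high polysome 0 under DESeq2 size factors, its test or the length trend removed (main 1), Rpa1 in each fraction. For WT high polysome over monosome, members called lower were 0 under DESeq2 size factors, library size alone, no filter or the DESeq2 test (main 1, Smc5). For WT low polysome over monosome they were 1 by edgeR, by DESeq2 and with the replicate block (main 0). For the mean over fractions, members called higher were 2 with the number shared by WT and KO as a replicate block and 0 with summed counts in edgeR (main 1). The cause was not tested.

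With each gradient left out, members called lower ranged from 2 to 3 for the KO effect on high polysome over monosome, 0 to 1 on low polysome over monosome and 0 to 0 on high over low polysome, and none was higher, 0 to 0, in any of these. In the monosome, KO against WT, 2 to 2 were higher and 0 to 1 lower, in the low polysome 0 to 1 higher and 3 to 3 lower, and in the high polysome 0 to 1 higher and 4 to 6 lower. In WT, high polysome over monosome gave 6 to 7 higher and 0 to 1 lower, and low polysome over monosome 4 to 6 higher and 0 to 0 lower. The mean over fractions gave 0 to 1 higher and 3 to 4 lower.

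WT and KO share only a number. Libraries of the same fraction and number correlated at -0.446 to 0.223, and 8 of 18 were closest to their own number. This replicate block added Smc5 in the high polysome (-0.46) and Nsmce3 in the mean over fractions (0.25), and the block by gradient changed no member call beyond those given above and in the text. The median of all genes in the KO effect on high polysome over monosome moved from 0.022 to -0.10 with library size alone. Clone 1 had a single gradient, so clone and gradient cannot be told apart. The shallowest library held 2543617 counts.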
